A study of Mus musculus with 6 samples.

Results

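The Toll-like receptors are the family described here, in RAW264.7 cells grown alone or beside TTJ cells. The members were the rows of the deposited count table named Tlr1 to Tlr9 and Tlr13, 10 genes of 54532 in the table. RAW264.7 is an established mouse macrophage line that was transformed with a murine leukaemia virus, labelled wild type. TTJ cells lack Tsc2 and were derived from an angiomyolipoma (a mixed vascular, smooth muscle and fatty tumour) that arose in a mouse model of tuberous sclerosis complex. The groups were RAW264.7 cells sorted after growth alone (3 libraries, replicates A, B and C) and RAW264.7 cells sorted after 48 h of coculture with TTJ cells (3 libraries, replicates A, B and C). Both groups were kept in the same medium, and no sorting marker and no statement that replicates came from different cultures is in the labels. The p-values may therefore reflect library-to-library spread that is purely technical. The comparison addresses what growth beside Tsc2-deficient cells does to macrophage state.

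Toll-like receptors recognise conserved microbial molecules and some self molecules. Tlr1, Tlr2, Tlr4, Tlr5 and Tlr6 encode receptors that work mainly at the cell surface and bind lipids, lipoproteins or flagellin. Tlr3, Tlr7, Tlr8, Tlr9 and Tlr13 encode receptors that work in endosomes and bind nucleic acids. All signal through the adaptor MyD88 except TLR3, which uses TRIF, and TLR4 uses both. In macrophages they lead to NF-kB and interferon regulatory factor (IRF) activity and so to cytokines and interferons.

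Values are library-scaled counts (CPM, on TMM-scaled library sizes), as mean ± SD with n = 3 per group. Total counts ran from 14329487 to 17358280 per library, and a group total of 0 allows up to 3 counts, which is 0.0618 CPM alone and 0.0639 CPM in coculture. Fold changes, their SE on the log2 scale and adjusted p-values come from edgeR's quasi-likelihood test with Benjamini-Hochberg adjustment over the 12972 genes that passed the filter on low counts. The macrophage markers summed to between 10483 and 10548 CPM alone and between 11036 and 11289 CPM in coculture, and all 10 were detected in both groups. Of these markers 5 were higher and 3 (Cd68, Spi1 and Tyrobp) lower, and Lyz2 alone made up 6768 ± 51.4 CPM of the sum in lone cells. The cocultured libraries also held transcripts that serve as markers of other cell types, and which cells they came from was not tested. The 13 epithelial markers summed to between 0 and 0.115 CPM alone and between 358 and 413 CPM in coculture. The 9 tested had at most 1 count alone and passed the filter only through coculture. That all 9 were higher was therefore fixed in advance. Of the 13 epithelial markers Epcam, Cldn7 and Lhx1 had 0 counts in coculture. The 12 mesenchymal and smooth muscle markers summed to 1.90 to 2.27 CPM alone and 59.5 to 64.2 CPM in coculture. Of these 4 were tested, and 3 (Col5a1, Cav1 and Timp3) were higher. These 3 also had at most 1 count alone and passed the filter only through coculture. The smooth muscle marker Acta2 did not pass (0.989 ± 0.139 CPM alone and 1.41 ± 0.102 CPM in coculture, adjusted p = 0.268). Tagln, Cnn1, Myh11 and Des, other smooth muscle markers, were too low for the filter, and Col3a1 had 0 counts in both groups. Genes with no count alone and at least 10 in coculture numbered 688 and took 0.282% to 0.314% of the counts of the cocultured libraries. Of 8 markers of other leukocytes, 7 had 0 counts in every library. The part of RNA from other cells in the receptor values below was not tested. In bulk RNA, fewer cells of a type and less RNA per cell cannot be told apart.

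RefSeq's table of promoters (GRCm38.p6) matched 8 of the 10 members, with 10 start sites in all. Tlr4 and Tlr7 had no entry, so no window of theirs was searched. The stretches below lie before the RefSeq start sites of the 3 receptors that rose (Tlr3, Tlr8 and Tlr13), of Tlr2, which fell, and of Tlr6, which did not pass the test. Bases that GENCODE M21 annotates as an exon of the gene were left out. The sequences run 5′ to 3′ on the gene's strand, and capitals mark the core IRF motif AANNGAAA or its reverse complement.
Tlr3 (chr8:45410381-45410452, minus strand): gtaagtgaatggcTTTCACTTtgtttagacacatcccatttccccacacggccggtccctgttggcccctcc
Tlr8 (chrX:167264330-167264579, minus strand): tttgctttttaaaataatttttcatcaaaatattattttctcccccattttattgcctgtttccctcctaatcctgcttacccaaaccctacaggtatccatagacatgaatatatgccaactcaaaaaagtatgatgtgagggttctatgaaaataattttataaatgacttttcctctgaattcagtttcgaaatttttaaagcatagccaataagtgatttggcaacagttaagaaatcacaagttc
Tlr13 (chrX:106143025-106143203, plus strand): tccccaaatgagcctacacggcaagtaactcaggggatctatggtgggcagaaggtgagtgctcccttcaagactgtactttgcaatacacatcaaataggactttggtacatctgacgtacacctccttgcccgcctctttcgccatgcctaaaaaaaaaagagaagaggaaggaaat
Tlr2 (chr3:83841768-83841858, minus strand): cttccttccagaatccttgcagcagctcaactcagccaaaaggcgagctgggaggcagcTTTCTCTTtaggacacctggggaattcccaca
Tlr6 (chr5:64959167-64959416, minus strand): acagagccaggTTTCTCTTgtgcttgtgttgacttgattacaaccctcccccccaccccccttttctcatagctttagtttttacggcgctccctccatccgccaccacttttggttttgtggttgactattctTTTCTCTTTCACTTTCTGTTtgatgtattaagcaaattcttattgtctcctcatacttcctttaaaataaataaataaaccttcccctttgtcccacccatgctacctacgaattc

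The Tlr3 and Tlr6 stretches lie inside the gene, between annotated exons of transcripts that start further upstream. Motifs were searched on both strands of the whole 250 bases before each start site. The core IRF motif was found 1 time each for Tlr3 and for 1 of the Tlr1 start sites, 2 times for Tlr2, 4 times for this Tlr6 start site and 0 times for Tlr8 and Tlr13, and 21.3% of all 32841 promoter windows of that length hold it. The interferon-stimulated response element, searched as GAAA, any 2 bases and GAAA, which overlaps the core IRF motif, was found at the Tlr6 start site alone among the members' windows, as 2 overlapping matches, and 2.98% of all windows hold it. The NF-kB consensus was found in the Tlr2 window, as 2 overlapping matches, and in the Tlr3 window, as 1 match, and 7.25% of all windows hold it. The PU.1 core GAGGAA was found 1 time each in the Tlr8 and Tlr13 windows, in the Tlr9 window and in 1 Tlr1 window, and in 23.3% of all windows. The interferon gamma activated site, searched as TTC, any 3 bases and GAA, was found for Tlr1 and Tlr8 (7.02% of all windows), and the AP-1 motif TGANTCA for Tlr9 (6.75%). Whether any motif in these 250 bases bears on the change of a receptor was not tested. A match describes letters in a window and does not show that a factor binds there.

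Of the 10 receptors 9 passed the filter and were tested. The endosomal receptors Tlr3, Tlr8 and Tlr13 rose, Tlr2 and Tlr7, the receptors with the most transcript, fell slightly, and Tlr1, Tlr4, Tlr6 and Tlr9 did not pass the test. That makes 5 called of 9 (55.6%), beside 36.9% of all genes tested (21.7% higher and 15.2% lower). Among the 11452 genes with at least 1 CPM alone, fitted on their own, 32% were called (17.6% higher and 14.4% lower). The median log2 change was 0.05 over the 9 receptors and 0.0029 over all genes. The same 5 were also the tested receptors whose groups did not overlap in CPM, which held for 47.1% of all genes tested (26.1% above and 21% below).

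**Figure D1:**
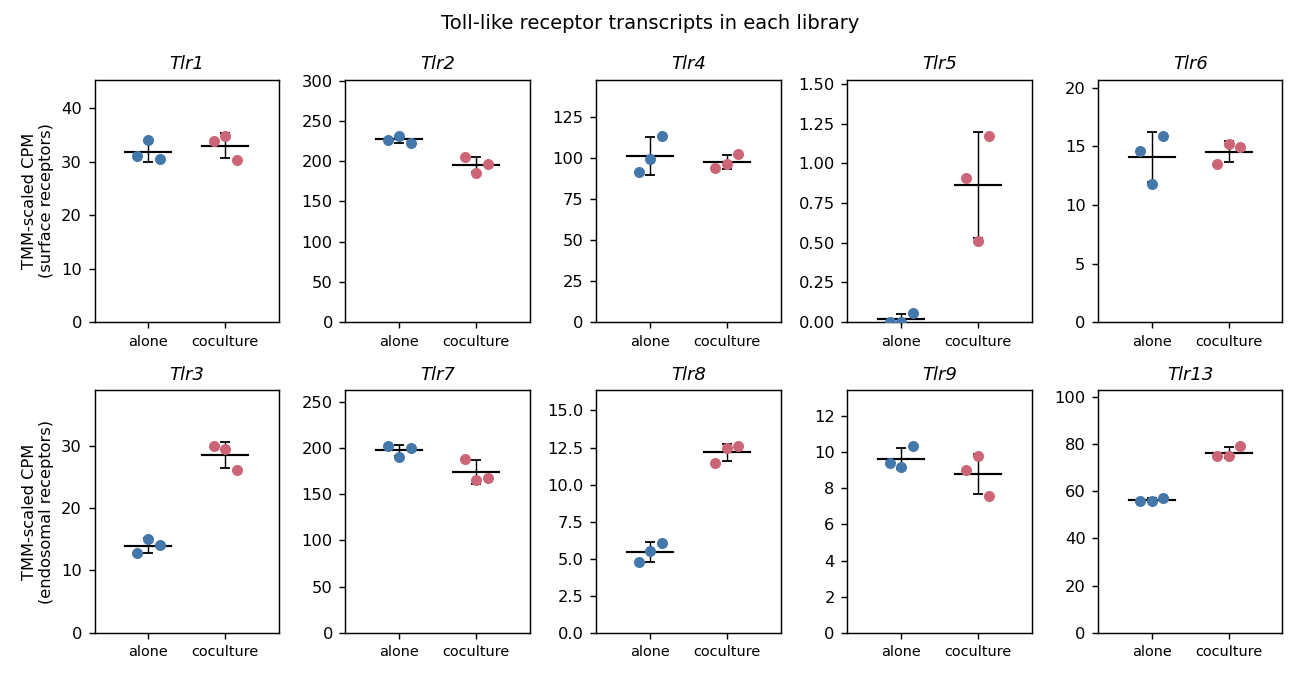
TMM-scaled CPM of each receptor gene (vertical axes, each from 0) in the 3 libraries of lone cells (blue) and the 3 of cocultured cells (red), points from left to right being replicates A, B and C, bars the mean and SD. The top row holds the surface receptors and the bottom row the endosomal ones. The groups lie apart for Tlr3, Tlr8 and Tlr13 (coculture higher), for Tlr2 and Tlr7 (coculture lower) and for Tlr5, which had 1 count alone.

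Tlr3 (ENSMUSG00000031639, mm10 chromosome 8, 45395665 to 45411080, minus strand) encodes the receptor for double-stranded RNA. It had 185, 252 and 243 counts in lone replicates A, B and C (12.7 to 15.1 CPM) and 427, 461 and 444 counts in cocultured replicates A, B and C (26.1 to 29.9 CPM). Every cocultured library lay above every lone one, and the gap between the groups was wider than the spread within either. It rose 2.03-fold (SE 0.0994, 95% interval 1.77 to 2.35, adjusted p = 5.00e-09). The gene overlaps an antisense gene, Gm45542, over 698 bases, which had 0 counts in both groups.

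Tlr8 (ENSMUSG00000040522, chromosome X, 167242696 to 167264329, minus strand), of the group of single-stranded RNA receptors, was counted 69, 92 and 105 times in lone replicates A, B and C and 164, 195 and 214 times in cocultured ones. These counts are 4.75, 5.52 and 6.05 CPM alone and 11.5, 12.4 and 12.6 CPM in coculture, again without overlap. The rise was 2.23-fold (SE 0.143, 95% interval 1.82 to 2.74, adjusted p = 3.34e-07).

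Tlr13 (ENSMUSG00000033777, chromosome X, 106143204 to 106160493, plus strand) encodes a receptor for bacterial ribosomal RNA. Lone replicates A, B and C had 55.7, 55.7 and 57.2 CPM and cocultured ones 74.9, 75.1 and 78.9 CPM. The libraries of each group lay close together, and the groups were apart. It rose 1.36-fold (SE 0.0567, 95% interval 1.25 to 1.47, adjusted p = 6.00e-07).

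Tlr7 (ENSMUSG00000044583, chromosome X, 167304929 to 167330558, minus strand), a receptor for single-stranded RNA, moved the other way. It was at 201.9, 190.7 and 200.2 CPM alone and at 189, 165 and 167 CPM in coculture, where replicate A lay just under the lowest lone library. It fell 1.14-fold (SE 0.0507, adjusted p = 0.00471, 95% interval of the ratio of coculture to alone 0.817 to 0.944). Tlr7 and Tlr8 are neighbours on chromosome X on the same strand, 40599 bases apart, and the ratio of Tlr7 to Tlr8 FPKM was 37.4, 30.4 and 29.1 alone and 14.4, 11.7 and 11.7 in coculture. Tlr9 (ENSMUSG00000045322, chromosome 9, 106222598 to 106226883, plus strand), the receptor for CpG DNA, was at 9.42, 9.17 and 10.3 CPM alone and at 9.03, 9.76 and 7.58 CPM in coculture. Its groups overlapped, and it did not pass the test (log2 change -0.14, SE 0.140, 95% interval -0.42 to 0.15, adjusted p = 0.488).

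Among the surface receptors Tlr2 (ENSMUSG00000027995, chromosome 3, 83836272 to 83841767, minus strand), the receptor for bacterial lipoproteins, was at 226, 232 and 223 CPM alone. In cocultured replicates A, B and C it was at 205, 186 and 196 CPM, all below the lone libraries. It fell 1.16-fold (SE 0.0456, adjusted p = 0.000466, 95% interval of the ratio 0.807 to 0.919). Tlr1 and Tlr6 encode the partners with which TLR2 binds triacylated and diacylated lipoproteins, and they lie 18467 bases apart on the minus strand of chromosome 5. Tlr1 (ENSMUSG00000044827, 64924679 to 64933563) was at 31.1, 34.2 and 30.5 CPM alone and 33.9, 34.9 and 30.4 CPM in coculture. Tlr6 (ENSMUSG00000051498, 64952031 to 64960097) was at 14.6, 11.8 and 15.9 CPM alone and 13.5, 15.2 and 14.9 CPM in coculture. Both overlapped between the groups and neither passed the test (adjusted p = 0.687 for Tlr1 and 0.799 for Tlr6). The 95% intervals of the log2 change, -0.12 to 0.21 for Tlr1 and -0.20 to 0.30 for Tlr6, exclude a change as large as that of Tlr3. TLR1 and TLR6 are close paralogs, so reads from the sequence they share may be split or lost.

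Tlr4 (ENSMUSG00000039005, chromosome 4, 66827584 to 66930284, plus strand) encodes the lipopolysaccharide receptor. It was at 91.4, 99.4 and 113.9 CPM alone and at 94.1, 96.3 and 102.8 CPM in coculture. The cocultured values lay within the range of the lone ones (log2 change -0.06, SE 0.0628, 95% interval -0.19 to 0.07, adjusted p = 0.533).

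Tlr5 (ENSMUSG00000079164, chromosome 1, 182954788 to 182976044, plus strand), the flagellin receptor, was close to absent. It had 0, 0 and 1 count in lone replicates A, B and C and 13, 8 and 20 counts in cocultured ones, which are 0.910, 0.511 and 1.18 CPM. The ratio of coculture to alone was 42.4, and its exact conditional binomial 95% interval, which reflects counting error alone, ran from 7.20 to 1715. It was too low for the filter. Without the filter it passed (edgeR log2 change 4.94, SE 0.962, adjusted p = 3.22e-06). The epithelial markers summed to at most 0.115 CPM alone and at least 358 CPM in coculture, and 21.7% of all genes tested were higher in coculture. The part of TTJ RNA in the Tlr5 counts was not tested. Tlr11 and Tlr12, the remaining mouse receptor genes of the family, had 0 counts in all 6 libraries.

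**Figure D2:**
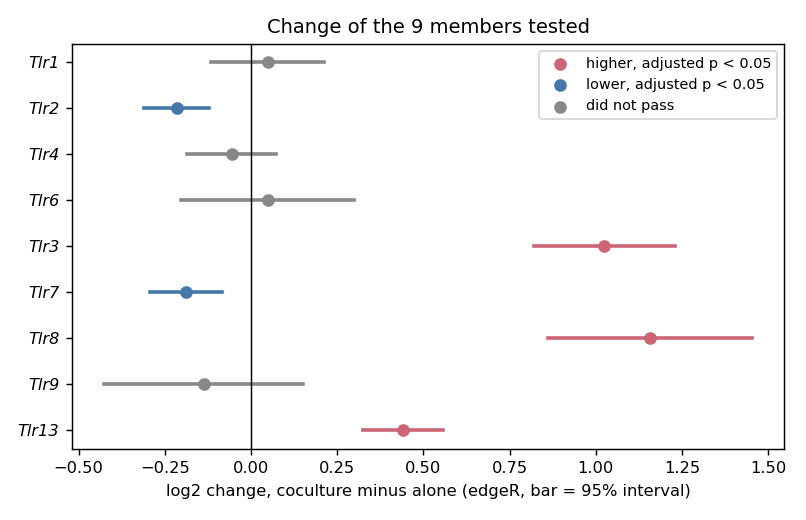
Log2 change, coculture minus alone, of the 9 tested receptors (edgeR), with bars for the 95% interval. Surface receptors are listed above endosomal ones, and the interval lies right of 0 for Tlr3, Tlr8 and Tlr13, left of 0 for Tlr2 and Tlr7, and spans 0 for Tlr1, Tlr4, Tlr6 and Tlr9.

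Levels were compared between receptors per kilobase, in the FPKM that the authors deposited. In lone cells the order was Tlr2 (75.1 ± 1.37 FPKM), Tlr7 (48.3 ± 1.54), Tlr4 (18.2 ± 2.05), Tlr13 (13.0 ± 0.200), Tlr1 (9.52 ± 0.574), Tlr6 (3.77 ± 0.571), Tlr9 (2.76 ± 0.174), Tlr3 (2.67 ± 0.226) and Tlr8 (1.51 ± 0.182), with Tlr5 at 0.0040 FPKM. Neighbours in this order did not overlap over the libraries, apart from Tlr9 and Tlr3. Tlr2 and Tlr7 together thus led the family, with 43.0% and 27.6% of its summed FPKM. Tlr2 stood above 95.4% and Tlr8 above 33.0% of the 13527 protein-coding genes detected in lone cells. In coculture Tlr2 (64.7 ± 3.08 FPKM) and Tlr7 (42.5 ± 3.14) still led. Tlr13 (17.7 ± 0.525) reached the level of Tlr4 (17.6 ± 0.813), and these 2 overlapped. Tlr3 (5.46 ± 0.399) moved above Tlr6 (3.90 ± 0.245), and Tlr8 (3.39 ± 0.168) moved above Tlr9 (2.52 ± 0.321), without overlap in either pair.

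**Figure D3:**
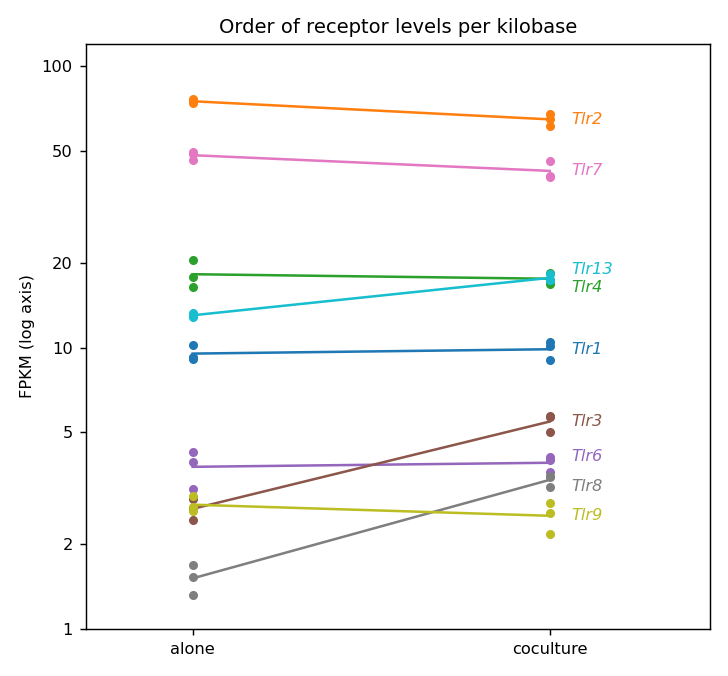
Deposited FPKM (log axis) of 9 receptors in lone and cocultured cells, with points for the 3 libraries and lines joining the means; Tlr5, at 0 in 2 lone libraries, is not drawn. The lines of Tlr13, Tlr3 and Tlr8 rise to or past those of Tlr4, Tlr6 and Tlr9.

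Because shares and ratios within a library do not depend on library scaling, the balance among receptors was also measured that way. The endosomal receptors made up 39.7%, 38.2% and 39.2% of the summed receptor FPKM in lone replicates A, B and C and 43.2%, 42.7% and 41.9% in cocultured ones. The share was 3.60 percentage points higher in coculture, with no overlap, and the exact two-sided permutation test gave p = 0.1, the smallest that 3 libraries against 3 allow. Surface receptor FPKM summed to 106.6 ± 1.85 alone and 96.3 ± 2.53 in coculture, and endosomal receptor FPKM to 68.3 ± 1.59 and 71.5 ± 2.95. Tlr7 over Tlr13 went from 3.71 ± 0.107 to 2.40 ± 0.223, and Tlr2 over its partner Tlr1 from 7.90 ± 0.327 to 6.59 ± 0.640, both without overlap. Tlr2 over Tlr6 (20.3 ± 3.65 and 16.7 ± 1.85) and Tlr1 over Tlr6 (2.58 ± 0.579 and 2.54 ± 0.264) overlapped. In all 12 such measures were computed, and no exact permutation p fell below 0.15 after Benjamini-Hochberg adjustment.

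**Figure D4:**
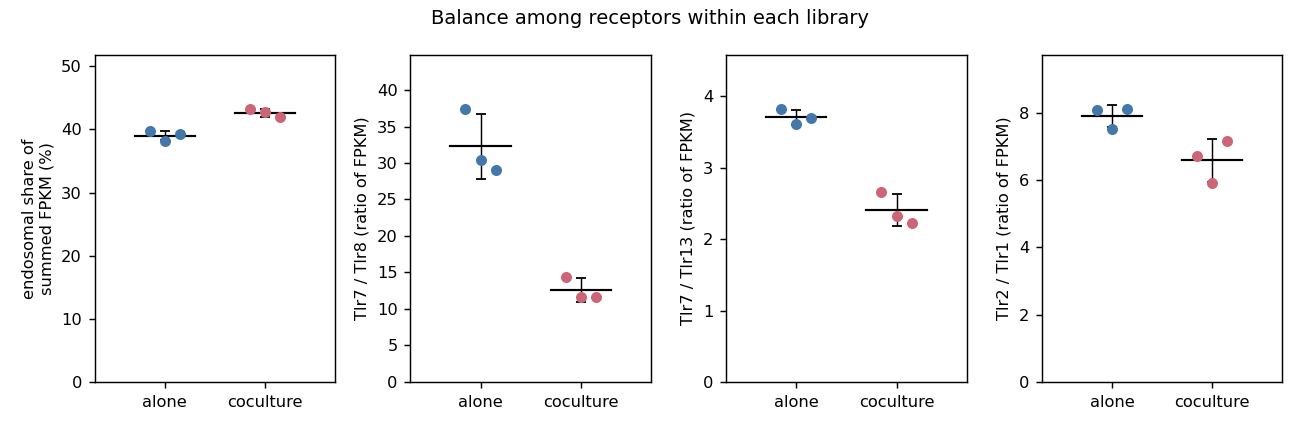
The endosomal share of summed receptor FPKM (percent) and 3 ratios of FPKM between receptors, in each library of lone (blue) and cocultured (red) cells, with the mean and SD and axes from 0. The Tlr7 to Tlr8 ratio went from 32.3 ± 4.47 to 12.6 ± 1.59.

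Other genes of the receptor pathway were taken from 7 lists by role, 100 genes in all, of which 93 were tested, 27 were higher and 23 lower. That is 53.8% called, beside 36.9% of all genes, with a median log2 change of -0.0034.

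Of 9 co-receptors and ligand-binding partners 7 were tested, 3 were higher and 1 lower (57.1% called, beside 36.9% of all genes tested). Cd36, a scavenger receptor that assists TLR2 with TLR6, rose from 72.4 ± 5.53 to 181 ± 8.59 CPM (2.50-fold, adjusted p = 4.94e-16). Itgam, which encodes the CD11b integrin chain, rose 1.86-fold to 99.3 ± 7.84 CPM, while its partner Itgb2 was at 347 ± 7.06 and 353 ± 11.1 CPM and did not pass (adjusted p = 0.688). Cd14, which hands lipopolysaccharide to the TLR4 complex, rose 1.09-fold from 1367 ± 39.7 to 1488 ± 43.3 CPM (adjusted p = 0.00709). That small rise no longer passed without coculture replicate A or in 2 of the FPKM fits, with an adjusted p of up to 0.0616. Ly96, which encodes MD-2, the lipopolysaccharide-binding partner of TLR4, was at 4.79 ± 0.594 and 4.59 ± 0.660 CPM (adjusted p = 0.842). Cd180, a receptor-like relative of TLR4, fell 1.18-fold to 94.2 ± 9.15 CPM. Lbp, the carrier of lipopolysaccharide in serum, had 0 counts alone and 2 in coculture, and the co-receptor gene Tril had 0 in both.

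All 16 genes of endosomal trafficking and processing were tested, with 8 higher and 3 lower (median log2 change 0.17). That is 68.8% called, beside 36.9% of all genes tested. Unc93b1, the chaperone that carries nucleic acid receptors to endosomes, fell 1.21-fold from 343 ± 9.90 to 282 ± 1.87 CPM (adjusted p = 4.24e-06). Slc15a3 and Slc15a4 are endolysosomal transporters of the same family. Slc15a3 rose 2.32-fold from 50.6 ± 2.78 to 117 ± 2.11 CPM, and Slc15a4 fell 1.19-fold from 49.0 ± 1.59 to 41.1 ± 3.69 CPM (adjusted p = 0.00726, and 0.0625 without coculture replicate B). The cysteine proteases cathepsin S and cathepsin L can cleave endosomal receptors. Ctss rose 1.41-fold to 644 ± 16.2 CPM and Ctsl 1.25-fold to 771 ± 5.96 CPM, whereas Ctsb was at 2825 ± 34.2 and 2879 ± 78.5 CPM (adjusted p = 0.536). Pld4, a nuclease that degrades ligands of TLR9, rose 1.26-fold to 245 ± 3.31 CPM. Hsp90b1, the folding chaperone gp96 of most of these receptors, rose 1.13-fold to 1864 ± 72.9 CPM.

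The adaptors were the list with the fewest calls, 1 of 7 tested (14.3%). Scimp, a transmembrane adaptor of macrophages, rose 4.58-fold from 2.41 ± 0.700 to 11.2 ± 0.562 CPM (adjusted p = 3.71e-10). Myd88 was at 105 ± 2.72 and 109 ± 7.09 CPM (adjusted p = 0.441), Ticam1, which encodes TRIF, at 29.6 ± 2.48 and 30.5 ± 4.05 CPM (adjusted p = 0.733), and Pik3ap1 at 134 ± 8.62 and 131 ± 3.11 CPM (adjusted p = 0.719). In edgeR 0 adaptors were lower at an adjusted p under 0.05 and 1 at an unadjusted p under 0.05, and the DESeq2 Wald test and limma-voom called 0 lower.

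Among 20 kinases and ubiquitin enzymes 1 was higher and 5 lower, which is 30% called, below the 36.9% of all genes tested. With the DESeq2 Wald test and with limma-voom 4 were lower. Irak1 and Irak2, kinases recruited by MyD88, fell 1.25-fold to 93.5 ± 3.04 CPM and 1.27-fold to 32.9 ± 2.13 CPM. Btk, a tyrosine kinase that acts below several of these receptors, fell 1.25-fold to 96.0 ± 2.88 CPM. Ube2n, a partner enzyme of TRAF6, did not pass (123 ± 5.88 and 127 ± 6.69 CPM, adjusted p = 0.579). Peli1, a ubiquitin ligase, fell 1.17-fold (adjusted p = 0.0384), with overlapping groups, and its adjusted p ranged from 0.00516 to 0.238 over the alternatives.

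The 16 negative regulators gave 4 higher and 5 lower (56.2% called, beside 36.9% of all genes tested). Socs1, an inhibitor of cytokine signalling, rose 2.36-fold from 1.56 ± 0.469 to 3.68 ± 1.23 CPM, and Cyld, a deubiquitinase, rose 1.24-fold to 70.8 ± 2.01 CPM. Sigirr, a decoy receptor of the family's signalling domain, rose 1.88-fold to 2.34 ± 0.680 CPM (adjusted p = 0.0333), a call that did not hold in 6 of 17 alternatives (adjusted p up to 0.217). Tnip3, which binds A20, fell 1.27-fold to 79.7 ± 1.60 CPM. Nfkbia, which encodes the NF-kB inhibitor, fell 1.16-fold to 74.7 ± 5.19 CPM (adjusted p = 0.00687, and 0.0530 without coculture replicate A). Ptpn6, a tyrosine phosphatase, fell 1.13-fold to 353 ± 12.4 CPM.

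Of 13 transcription factors 3 were higher and 6 lower (median log2 change -0.16). That is 69.2% called, beside 36.9% of all genes tested. The 3 that rose were all interferon regulatory factors. Irf7, which acts below TLR7 and TLR9, rose 2.05-fold from 288 ± 14.3 to 591 ± 5.57 CPM, Irf1 rose 1.55-fold to 32.8 ± 0.649 CPM and Irf8, named after its value was seen, 1.39-fold to 91.0 ± 3.47 CPM. Irf3 (log2 change -0.16, adjusted p = 0.0830) and Irf5 (log2 change -0.10, adjusted p = 0.117) did not pass. Atf3, a repressor induced by these receptors, fell 2.24-fold from 78.9 ± 11.3 to 35.3 ± 5.78 CPM, and Fos fell 2.33-fold to 246 ± 57.7 CPM. The NF-kB subunit genes Nfkb1, Rel and Relb fell 1.13-fold, 1.23-fold and 1.21-fold (adjusted p = 0.00287, 0.000675 and 0.0220). Jun fell 1.12-fold (adjusted p = 0.0232). The Relb call held in 14 of 18 alternatives and the Jun call in 11 of 18. Nfkb2 and Rela did not pass (adjusted p = 0.248 and 0.246).

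Of 19 genes that the receptors are known to induce, 14 were tested, 7 were higher and 3 lower. That is 71.4% called, beside 36.9% of all genes tested. With the DESeq2 Wald test and with limma-voom 2 were lower. The Gpr84 call (1.19-fold lower, adjusted p = 0.0439, overlapping groups) held in 7 of 18 alternatives. Il1a, which encodes interleukin 1 alpha, rose from 4 counts alone to 91 in coculture (0.0792 ± 0.0919 to 1.92 ± 0.411 CPM). Il1b rose 12.9-fold from a low level, 11 counts alone and 141 in coculture (0.228 ± 0.0476 to 3.03 ± 0.424 CPM). Il1a and Il1b passed the filter only through coculture, so being tested already required higher counts there. The chemokine genes Ccl3 and Ccl4 both rose. Lone cells had 207 ± 30.1 CPM of Ccl3 and cocultured cells 273 ± 10.5 CPM, a 1.32-fold difference. Ccl4, at 69.5 ± 0.723 CPM alone, reached 103 ± 11.2 CPM (1.48-fold). Cxcl10, another chemokine gene, rose 2.94-fold. The chemokine gene Cxcl2 went the other way, from 85.6 ± 11.9 to 51.7 ± 9.76 CPM (1.67-fold lower, adjusted p = 1.02e-06), and Ccl5 did not pass (adjusted p = 0.496). Cd83 fell 2.96-fold. Ifnb1, the interferon beta gene, had 3 counts alone and 0 in coculture, Il6 had 0 and 2, and Il12a and Il12b had 0 in both.

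**Figure D5:**
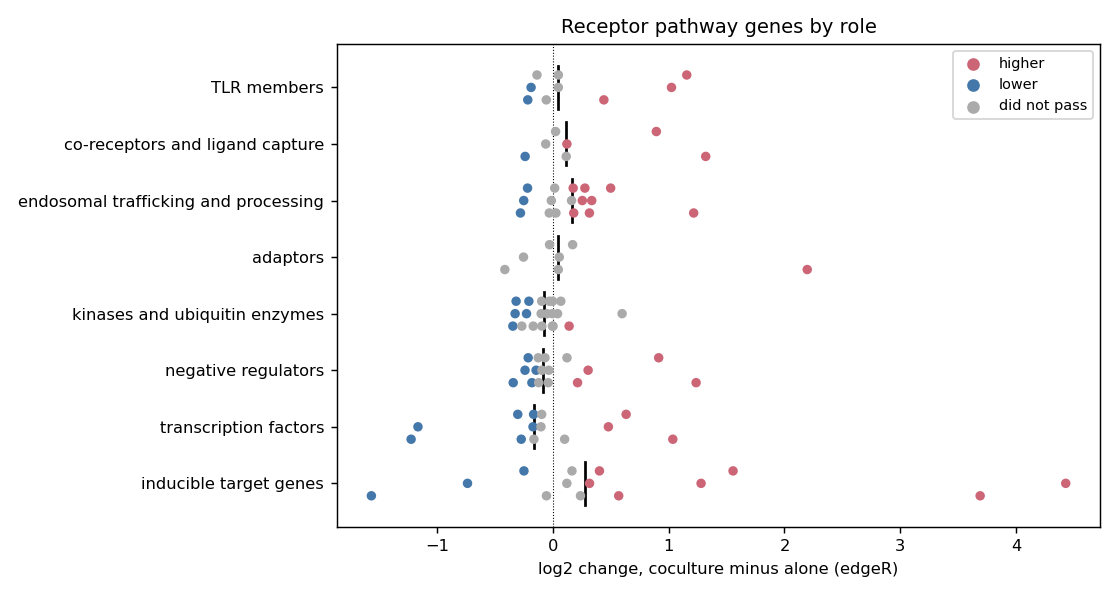
Log2 change, coculture minus alone, of each tested gene of the receptor family and of the 7 pathway lists (1 point per gene, edgeR), with a black bar at each list's median and a dotted line at 0. Points are red where the gene was higher, blue where it was lower and grey where it did not pass the test; the adaptors have 1 coloured point, Scimp, at 2.20.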

How the data were processed

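Per the labels' protocols, poly-A RNA of sorted cells was sequenced as paired reads. Build mm10 and, without roles, edgeR 3.22.5, DESeq2 1.20.0, featureCounts 1.5.0-p3 and HISAT2 2.0.5 are listed in the submitters' processing notes. The sources used here give no strand setting. The authors deposited raw counts per gene and, in a second table, FPKM values, which equalled count over gene length and library total times 0.996 to 1.00 per library. The coordinates of all 10 members equal those of GENCODE M21.

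Counts were tested with edgeR 4.0.16 (R 4.3.3): TMM scaling, filterByExpr, a group term and an adjusted p under 0.05. SE is the absolute log2 change over the square root of F. The alternatives used DESeq2 1.42.0 and limma 3.58.1, other scalings, filters and gene sets, FPKM with a pseudocount of 1 or 0.1, a replicate block and each library left out. Replicates differed by more than sampling noise (chi-square per degree of freedom 2.98 to 4.57). The procedure was also run on simulated counts with a fixed spread between replicates and few changed genes. That setting is simpler than these data, so it does not show how the calls behave here.

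Members and lists were chosen with earlier results of these data known. Named are all members, Cd14, Ly96, Unc93b1, Myd88 and Ticam1, Tlr11 and Tlr12, and from each list the 2 genes of highest FPKM and up to 4 called genes of largest change whose higher group reached 1 CPM. Lbp, Tril, Slc15a4, Irf3, Irf5, Irf8, Gm45542, Lyz2, Cd68, Spi1, Tyrobp and the cytokine genes with few counts were named after their values were seen. So were Nfkb1, Nfkb2, Rel, Rela, Relb, Jun, Cxcl2, Ccl5, Gpr84 and the epithelial, mesenchymal and smooth muscle markers named one by one.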

Additional observations from a re-analysis of the deposited data

How the results depend on the processing

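The 5 receptor calls (Tlr2, Tlr3, Tlr7, Tlr8 and Tlr13) kept their direction and stayed past the threshold in all 18 alternatives, with the highest adjusted p at 0.0472 for Tlr7. Tlr1, Tlr4, Tlr6 and Tlr9 passed in none of the 18. The sign of the log2 change turned for Tlr4 without lone replicate C (0.034) and for Tlr6 without lone replicate B (-0.071). With each library left out in turn it ranged from -0.12 to 0.03 for Tlr4 and from -0.07 to 0.15 for Tlr6. Of the 50 pathway genes called, 39 were called in every alternative that tested them. The count over all genes was 3159, against 4793, in the fit of log2(FPKM + 1) limited to genes averaging 1 FPKM or more, where 10986 genes were tested. Same-letter libraries had correlations of their deviations across genes of 0.0014 (A), 0.020 (B) and 0.035 (C). The B and the C libraries correlated best with their own letter, and the A libraries did not. With correlations this small and 3 libraries per group, the check cannot decide whether the letters mark a pairing. With the replicate block 4766 genes, 5 receptors and 49 pathway genes were called. The endosomal share stayed 3.16 to 3.95 percentage points higher with 1 library left out, where the exact permutation p was 0.2. Depth limits Tlr5, whose counts are too few for more than a wide ratio. Without the filter Tlr5 was called higher, with an adjusted p of 3.22e-06 in edgeR and 0.00104 in the DESeq2 Wald test. The other fits that tested it each left 1 library out. There it passed the filter through its coculture counts alone, so being called higher in them adds no support. In all the fits that tested Tlr5, 6 receptors were called, 4 of them higher.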
